A study of Mus musculus with 8 samples.

Results

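Ret encodes the receptor tyrosine kinase of the GDNF family of growth factors, and Gfra1, Gfra2, Gfra3 and Gfra4 encode the co-receptors that bring a ligand to it. These 5 genes were chosen by name, for what they encode, out of the 55573 genes counted in purified C-fibre low-threshold mechanoreceptors (C-LTMRs) of the mouse. C-LTMRs are unmyelinated sensory neurons of hairy skin that respond to light touch. They were sorted by GFP fluorescence from adult wild-type (WT) mice and from adult bhlha9 KO mice, of both sexes. Bhlha9 is a basic helix-loop-helix (bHLH) transcription factor best known from limb development. The 4 groups were male WT, male bhlha9 KO, female WT and female bhlha9 KO, with 2 libraries each, which the design text calls biological replicates. The sorted cells of all 4 groups were GFP-positive, with the driver of the GFP not given in the sources used here.

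RET does not bind its ligands alone. A ligand dimer binds a GFRα co-receptor held in the membrane by a lipid anchor, and this complex draws RET molecules together so that they phosphorylate each other. GFRα1 is the preferred partner of GDNF, GFRα2 of neurturin, GFRα3 of artemin and GFRα4 of persephin. Activated RET then signals through the RAS–ERK and PI3K–AKT pathways. In the dorsal root ganglion, RET is known from nonpeptidergic nociceptors, C-LTMRs and a set of myelinated touch receptors, while GFRα3 is known mainly from peptidergic and cold-sensing neurons. The bHLH factors bind short DNA motifs called E-boxes.

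Totals lay between 50919885 and 71956309 counts per library, and between 22088 and 25131 genes were detected. Levels are given as CPM, the counts of a gene divided by the TMM-scaled library size, and 3 counts were worth 0.0417 to 0.0589 CPM. The deleted gene, Bhlha9, was measured at 127 to 161 CPM in the 4 WT libraries and at 0.156 to 0.470 CPM in the 4 KO libraries, so all 8 matched their genotype labels. All 9 C-LTMR markers were detected in every library, led by Th, the rate-limiting enzyme of dopamine synthesis, at 2976 to 5359 CPM. The 9 markers summed to 6821 and 6455 CPM in male WT and to 4392 and 5919 CPM in male KO. The female sums were 6760 and 5616 CPM for WT and 5842 and 7347 CPM for KO, and these overlapped. Markers of other sensory neurons and of glia were also detected, and their sums are given beside the results they moved with. In sorted bulk samples such as these, fewer cells of a type and less RNA per cell cannot be told apart.

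All 5 genes are protein coding and passed the filter on low counts, and their positions are given on GRCm38. Ret (ENSMUSG00000030110) lies on chromosome 6 at 118151745–118197718 and Gfra1 (ENSMUSG00000025089) on chromosome 19 at 58235604–58455909, both on the minus strand. Gfra2 (ENSMUSG00000022103) lies on chromosome 14 at 70890120–70979838, on the plus strand. Gfra3 (ENSMUSG00000024366) lies on chromosome 18 at 34689898–34720387 and Gfra4 (ENSMUSG00000027316) on chromosome 2 at 131039632–131043088, both on the minus strand. Counts were summed over exons, and the exon lengths were 6763, 5476, 3539, 1997 and 2165 bp for Ret, Gfra1, Gfra2, Gfra3 and Gfra4. Counting did not use strand. Gfra1 shares 416 bp of exon with the antisense gene Gm16277, which had between 0 and 672 counts per library, and reads in that stretch entered both genes. Gfra4 shares 80 bp with the microRNA gene Mir6973b on the same strand, which had between 355 and 761 counts.

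The receptor kinase and 2 of its co-receptors were abundant in every library, while the other two varied strongly. Ret was measured at 1096 and 1295 CPM in male WT, 750 and 1152 CPM in male KO, 1065 and 999 CPM in female WT, and 1041 and 1403 CPM in female KO. The highest library was 1.87 times the lowest, and KO and WT values overlapped in both sexes. When genes were ranked by CPM per kb of exon length, only 1.26% to 2.96% of the detected genes of a library stood above Ret. Gfra2, the neurturin co-receptor, was measured at 451 and 609 CPM in male WT, 289 and 603 CPM in male KO, 485 and 461 CPM in female WT, and 470 and 597 CPM in female KO. Its highest library was 2.11 times its lowest, and its groups overlapped as well.

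Gfra4, the persephin co-receptor, was likewise steady. It was measured at 86.6 and 77.5 CPM in male WT, 59.6 and 82.9 CPM in male KO, 95.4 and 113 CPM in female WT, and 72.3 and 102 CPM in female KO. Its highest library was 1.90 times its lowest, and KO and WT overlapped in both sexes. The sequence just upstream of Gfra4 is shown because the deleted factor belongs to the bHLH family and Gfra4 was a detected member with an upstream window free of annotated exons. RefSeq promoter entries (GRCm38.p6) were matched for 2 members, Gfra1 and Gfra4. The 250 bases before the outer Gfra4 start, at chr2:131043089-131043338 on the minus strand, are given 5′ to 3′ with each E-box (CANNTG, a motif that reads the same on both strands) in capitals.
Gfra4 upstream: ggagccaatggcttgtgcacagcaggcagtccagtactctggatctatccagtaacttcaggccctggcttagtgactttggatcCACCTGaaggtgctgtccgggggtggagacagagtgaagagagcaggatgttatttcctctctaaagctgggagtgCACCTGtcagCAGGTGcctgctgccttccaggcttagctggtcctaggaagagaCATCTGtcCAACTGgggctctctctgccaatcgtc

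The window held 5 E-boxes that did not overlap each other. Of the 32851 promoter entries, 66.2% held at least 1 E-box in their 250 upstream bases, the median was 1, and 1.15% held 5 or more. The window before a second Gfra4 start held 2 E-boxes and the Gfra1 window held 3. A match of letters is a description and not a binding site, and no binding was measured in these libraries.

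Gfra3, the artemin co-receptor, was low to moderate and differed widely between libraries. It was measured at 14.4 and 1.73 CPM in male WT against 28.5 and 37.0 CPM in male KO. In females the WT libraries had 17.4 and 45.0 CPM and the KO libraries 1.70 and 0.337 CPM. The male KO libraries thus exceeded both male WT libraries, while the female KO libraries fell short of both female WT libraries. The highest library was 133 times the lowest, and the male WT libraries were themselves far apart, with a mean of 8.07 CPM ± 8.97 (SD, n = 2).

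Gfra1, the GDNF co-receptor, was per length the lowest of the family in 7 of 8 libraries and differed between KO and WT in the same direction as Gfra3 in each sex. It was measured at 0.761 and 0.770 CPM in male WT against 59.0 and 7.66 CPM in male KO. The female WT libraries had 6.62 and 14.5 CPM and the female KO libraries 3.23 and 0.941 CPM. Male WT libraries held 48 and 49 counts of Gfra1 and male KO libraries 3405 and 497, so the KO libraries did not overlap the WT libraries but differed greatly from each other. The female values ran the opposite way, with 375 and 914 counts in WT and 165 and 67 in KO. The overlapping antisense gene Gm16277 had 10 and 0 counts in male WT and 672 and 48 in male KO. In females it had 109 and 160 counts in WT and 0 in both KO libraries. The part of reads from the antisense strand in the Gfra1 counts was not tested.

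**Figure D1:**
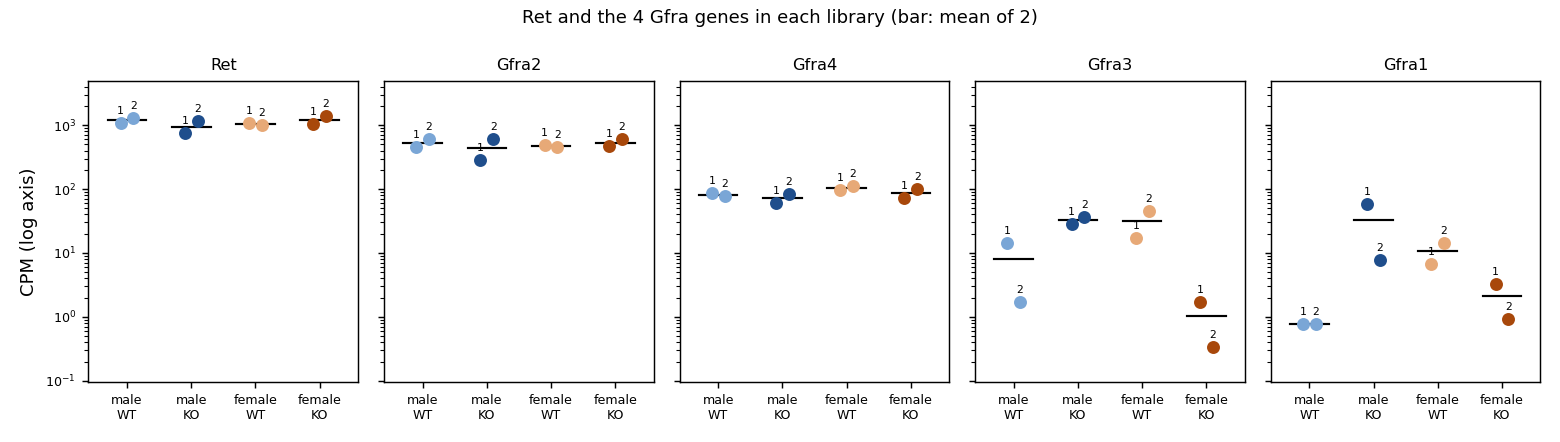
Level of each gene in CPM (log axis) in the 2 libraries of each group, with a bar at the group mean. Ret, Gfra2 and Gfra4 stayed within 1.87- to 2.11-fold over the 8 libraries, while Gfra3 spanned 133-fold and Gfra1 77.5-fold, with male KO above male WT and female KO below female WT.

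To compare the genes with each other, levels were divided by exon length. Ret lay between 111 and 208 CPM per kb, Gfra2 between 81.6 and 172, Gfra4 between 27.5 and 52.2, Gfra3 between 0.169 and 22.5, and Gfra1 between 0.139 and 10.8 CPM per kb. Gfra2 was the most abundant co-receptor per length and Gfra4 the next in all 8 libraries. Gfra3 followed in 7 libraries, and in female KO 2, where both were lowest or nearly so, Gfra1 stood marginally above Gfra3. The ranges of Gfra3 and Gfra1 over the 8 libraries overlapped, so their order was seen within libraries and not between their ranges.

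Gfra2 made up 72.8% ± 7.65 (SD, n = 8) of the summed co-receptor transcripts per kb, with 60.8% in male KO 1 as the lowest share and 82.4% in male WT 2 as the highest. Gfra4 made up 20.9% ± 2.93 (SD, n = 8). Gfra3 took between 0.0782% and 10.8% and Gfra1 between 0.0673% and 8.04%. The neurturin co-receptor thus led in every library, and the persephin co-receptor gave most of the remainder. Per length, the 4 co-receptors together reached 1.04 to 1.40 times the level of Ret. Gfra2 alone reached 0.736 to 0.999 times the level of Ret, and Gfra4 0.187 to 0.353 times.

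**Figure D2:**
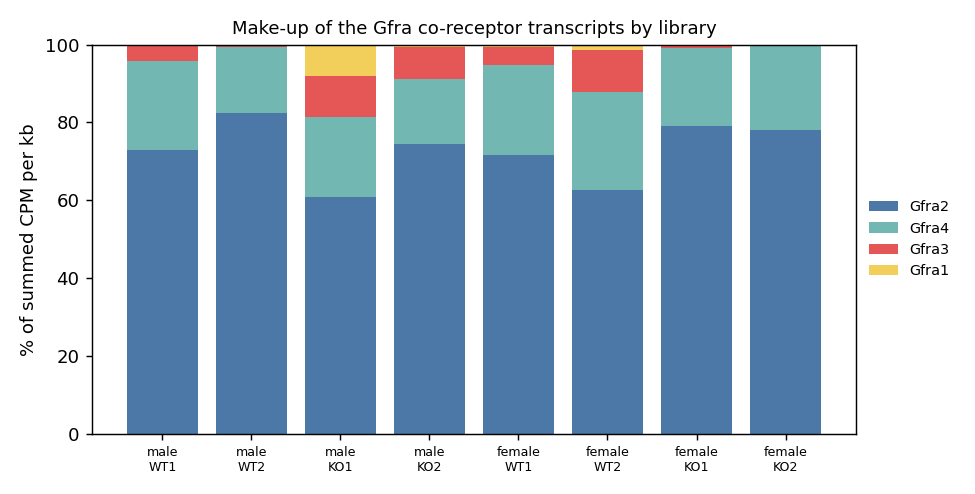
Share of each Gfra gene (percent of the summed CPM per kb of the 4 co-receptors) in each of the 8 libraries. Gfra2 took 60.8% to 82.4% and Gfra4 16.8% to 25.2%, while Gfra3 and Gfra1 reached at most 10.8% and 8.04%.

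The series asked what loss of Bhlha9 does to C-LTMRs of each sex, so KO was compared with WT within males and within females. Genes were tested with edgeR's quasi-likelihood F test on counts, and the threshold was an adjusted p (Benjamini-Hochberg, over 22013 tested genes) of 0.05. None of the 5 members passed in males or in females by this test, where all had an adjusted p of 1. By that rule 0.00454% of the tested genes passed in each sex, which is 1 gene, Bhlha9. At an unadjusted p below 0.05 edgeR picked 1 member in each sex, Gfra1 in males and Gfra3 in females, beside 3.50% of all tested genes in males and 3.81% in females.

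Ret, Gfra2 and Gfra4 did not differ between KO and WT beyond the spread between libraries. For Ret the log2 fold change was -0.33 (SE 0.25, 95% interval -0.93 to 0.27) in males and 0.24 (SE 0.25, interval -0.35 to 0.84) in females. For Gfra2 it was -0.25 (SE 0.35, interval -1.08 to 0.58) in males and 0.17 (SE 0.35, interval -0.66 to 1.01) in females. For Gfra4 it was -0.20 (SE 0.25, interval -0.80 to 0.40) in males and -0.26 (SE 0.25, interval -0.86 to 0.34) in females. These intervals still allow changes of up to about a doubling of the level for Gfra2, so a small effect was not detectable with 2 libraries a group. Male KO 1 held the lowest level of Ret, Gfra2, Gfra4 and Th and the lowest C-LTMR marker sum of the 8 libraries. Without it, the male log2 fold changes were -0.05 for Ret, 0.18 for Gfra2 and 0.01 for Gfra4. Male KO 2 also had a C-LTMR marker sum below both male WT libraries. Of the 9 markers, 8 were lower in male KO (median log2 fold change -0.38) and 8 were higher in female KO (median 0.27). The medians over all tested genes were 0.02 in males and 0.00 in females. The part of C-LTMR content in the Ret, Gfra2 and Gfra4 values was not tested.

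Gfra1 was higher in male KO than in male WT by a log2 fold change of 5.44 (SE 1.18, 95% interval 2.62 to 8.26), about 43.4-fold. Its unadjusted edgeR p was 0.00276, the 33rd smallest of the comparison, and its adjusted p of 1 did not pass. A KO group wholly above WT, as here, was found in males for 14.5% of all tested genes. DESeq2 on the same genes and groups gave a log2 fold change of 5.45 (SE 0.91) with an adjusted p of 3.29e-06, in a comparison where it called 0.745% of the tested genes. The male KO group rested on 2 very different values. Without male KO 1 the DESeq2 estimate was 3.32 with an adjusted p of 0.114, and with any other library left out the adjusted p stayed below 0.05. The authors' deposited table for males, which holds 150 genes, lists Gfra1 with a log2 fold change of 1.99 (SE 0.37) and an adjusted p of 3.89e-05. That value is smaller than both estimates here, and whether it was shrunken is not stated in the table.

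Gfra3 in males had a log2 fold change of 2.02 (SE 1.10, 95% interval -0.60 to 4.64), which passed neither by edgeR nor by DESeq2 (DESeq2 adjusted p = 0.635). Male WT 1 decided this value. Without that library the DESeq2 estimate was 4.26 with an adjusted p of 0.00146, while the edgeR estimate was 4.24 with an adjusted p of 1. Gfra3 is not listed in the authors' deposited table for males.

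In females Gfra3 was lower in KO than in WT, with a log2 fold change of -4.95 (SE 1.26, 95% interval -7.95 to -1.94), about 30.9-fold. The unadjusted edgeR p was 0.00622 and the adjusted p was 1. A KO group wholly below WT was found in females for 15.1% of all tested genes. DESeq2 gave -4.94 (SE 0.93) with an adjusted p of 7.94e-05, in a comparison where it called 0.750% of the tested genes. This call was kept with each of the 8 libraries left out in turn, and the largest adjusted p, 0.0462, came without female WT 2. The DESeq2 estimate was -4.09 without that library and -6.51 without female KO 1. The authors' deposited table for females, which holds 13 genes, lists Gfra3 with a log2 fold change of -1.25 (SE 0.27) and an adjusted p of 0.00759. Here too the listed value is smaller in size than both estimates, and whether it was shrunken is not stated.

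Gfra1 in females had a log2 fold change of -2.34 (SE 1.03, 95% interval -4.79 to 0.11). Its unadjusted edgeR p was 0.058, and the DESeq2 adjusted p was 0.334. The edgeR value was -3.48 without female KO 1, -1.67 without female WT 2 and -1.71 without female KO 2. It is not listed in the authors' deposited table for females. Ret, Gfra2 and Gfra4 are in neither of the authors' deposited tables, which hold only genes past 5%.

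**Figure D3:**
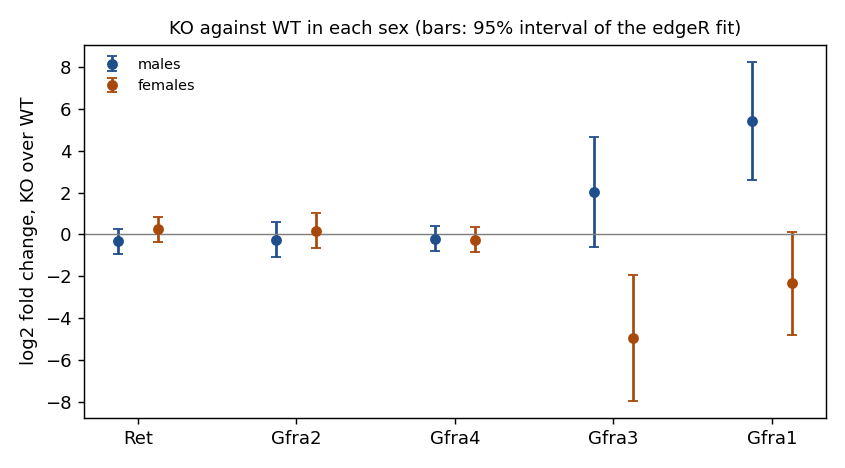
Log2 fold change of KO over WT in males and in females for each gene, with the 95% interval of the edgeR fit. The intervals of Ret, Gfra2 and Gfra4 span 0 in both sexes, that of Gfra1 lies above 0 in males (2.62 to 8.26) and that of Gfra3 below 0 in females (-7.95 to -1.94), and neither passes after adjustment over all genes.

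The difference between the sexes was tested as an interaction, the male minus the female effect of the KO. It was 7.78 on the log2 scale (SE 1.55) for Gfra1 and 6.97 (SE 1.66) for Gfra3 by edgeR, both with an adjusted p of 0.98. No gene passed this test by edgeR, so its background was 0%, with 1041 genes (4.73%) at an unadjusted p below 0.05. DESeq2 called 0.986% of the tested genes here and gave an adjusted p of 1.27e-06 for Gfra1 and 6.43e-05 for Gfra3. Both calls were kept with each library left out in turn, with a largest adjusted p of 0.00474 for Gfra1 and 0.0126 for Gfra3. For both genes the KO libraries lay wholly above WT in males and wholly below WT in females, a pattern found for 580 tested genes (2.63%), and the reverse pattern was found for 2.14%. For Ret the difference was -0.57 (SE 0.35), for Gfra2 -0.42 (SE 0.49) and for Gfra4 0.06 (SE 0.36), and none of these passed.

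Over both sexes together, in a model with sex and genotype, no member passed. The log2 fold changes were -0.04 (SE 0.19) for Ret, -0.04 (SE 0.24) for Gfra2, -0.23 (SE 0.16) for Gfra4, -1.40 (SE 2.34) for Gfra3 and 1.52 (SE 2.75) for Gfra1. For Gfra3 and Gfra1 this model averages effects of opposite sign. By edgeR it called 0.00454% of tested genes and by DESeq2 0.236%, with no member among either.

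WT libraries of the 2 sexes were compared to see where the members stood without the deletion. Male WT was lower than female WT by a log2 fold change of -3.78 (SE 1.10) for Gfra1, with an adjusted edgeR p of 0.903 where 4.44% of tested genes had an unadjusted p below 0.05. DESeq2 gave -3.77 for Gfra1 with an adjusted p of 0.0109, where it called 0.636% of tested genes and edgeR called 0%. For Gfra3 the edgeR value was -1.95 (SE 1.10), with an adjusted p of 0.903, and it was -4.17 without male WT 1, -1.08 without male WT 2, -1.11 without female WT 2 and -2.48 without female WT 1. The Gfra1 value was -4.24 without female WT 1 and -3.11 without female WT 2. This comparison and the KO comparisons share the WT libraries, so the low male WT and high female WT values of Gfra1 enter both. For Ret the value was 0.21, for Gfra2 0.17 and for Gfra4 -0.35, and none passed.

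Summed markers of other cells also differed between these libraries. The 8 peptidergic neuron markers summed to 697 and 753 CPM in male WT and to 1503 and 2081 CPM in male KO. The female sums were 1203 and 1932 for WT and 1565 and 507 for KO, and these overlapped. In males 7 of the 8 were higher in KO (median log2 fold change 1.44) and in females 7 of the 8 were lower (median -1.56), beside medians of 0.02 and 0.00 over all tested genes. Calca, which encodes the peptide CGRP, was lowest in female KO 2 at 5.94 CPM, the library with the least Gfra3, and at 713 CPM in female KO 1, where Gfra3 was also low. Trpv1, the capsaicin receptor, was at 0 in male WT 1 and between 0.0562 and 46.1 CPM elsewhere. The part of these cells in the Gfra3 and Gfra1 results was not tested.

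The 9 myelinated afferent markers summed to 1330 and 1171 CPM in male WT and to 5877 and 1991 CPM in male KO. The female sums were 1047 and 964 for WT and 1363 and 1107 for KO, so here KO lay above WT. The sum was carried by Nefm, a medium neurofilament subunit, at 685 to 3764 CPM, and its members did not run together in females. Of the 8 tested members, all were higher in male KO (median 3.46), while in female KO 4 were higher and 4 lower (median -0.85). Etv1 was among those lower, at 8.12 and 22.3 CPM in female WT against 0.215 and 0.211 CPM in female KO. Pvalb, at 0.459 and 17.3 against 0.509 and 0.225 CPM, overlapped. Male KO 1, which had the most Gfra1, also had the highest levels of Nefh, a heavy neurofilament subunit, at 1551 CPM and of Pvalb, a calcium-binding protein of proprioceptors, at 83.1 CPM. Calb1, another calcium-binding protein, was at 36.7 CPM in that library and at 0 to 0.0943 CPM in the others. Runx3, a transcription factor of proprioceptors, was at 8.93 CPM there and at 0 to 0.508 CPM in the others. Nefm, Spp1 and Etv1 of this list were also highest in male KO 1, while Ntrk2 and Ntrk3 were not. Ntrk2 was at 56.4 CPM there against 58.6 CPM in male WT 1. Ntrk3 was at 254 CPM there against 266 CPM in female KO 1. The part of these cells was not tested.

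The 9 glial markers, none at 0 in any library, summed to 2601 and 906 CPM in male WT and to 3939 and 2744 CPM in male KO. The female sums were 2565 and 3058 for WT and 1207 and 2732 for KO, so the KO libraries were far apart. In males 8 of the 9 were higher in KO (median 1.17), and in females 8 of the 9 were lower (median -0.47). The sum was dominated by Apoe, a lipid carrier of satellite glia, at 345 to 3035 CPM. The 9 nonpeptidergic markers summed to between 68.0 and 416 CPM, with the highest sum in male KO 2. KO and WT sums of this list overlapped in each sex.

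The 8 vascular and connective tissue markers were low but lay on the same side as Gfra1 and Gfra3 in each sex. They summed to 15 and 3.25 CPM in male WT and to 64.8 and 21.0 CPM in male KO, with 7 of 8 higher in KO. The female sums were 34.2 and 50.6 for WT and 3.41 and 11.4 for KO, with 7 of 8 lower in KO. The sum of the 3 cold-sensing markers ran the other way. In males it was 15.5 and 21.4 CPM in WT against 3.07 and 0.894 CPM in KO. In females it was 0.229 and 0.539 CPM in WT against 3.48 and 1.08 CPM in KO. The direction of that sum came from Penk, which encodes enkephalin, and the single markers did not run together. Trpm8, the cold receptor, was at most 1.98 CPM. It lay on the same side as Gfra1 and Gfra3 in each sex, as for 2.63% of all tested genes. It was at 0 in both male WT libraries and in female KO 1. The immune markers summed to 11.8 to 25.4 CPM, with KO and WT overlapping in each sex. The red blood cell markers summed to 0.0843 to 19.8 CPM, and only in males did KO (1.09 and 1.11) lie below both WT libraries (1.68 and 19.8). The part of these cells was not tested.

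**Figure D4:**
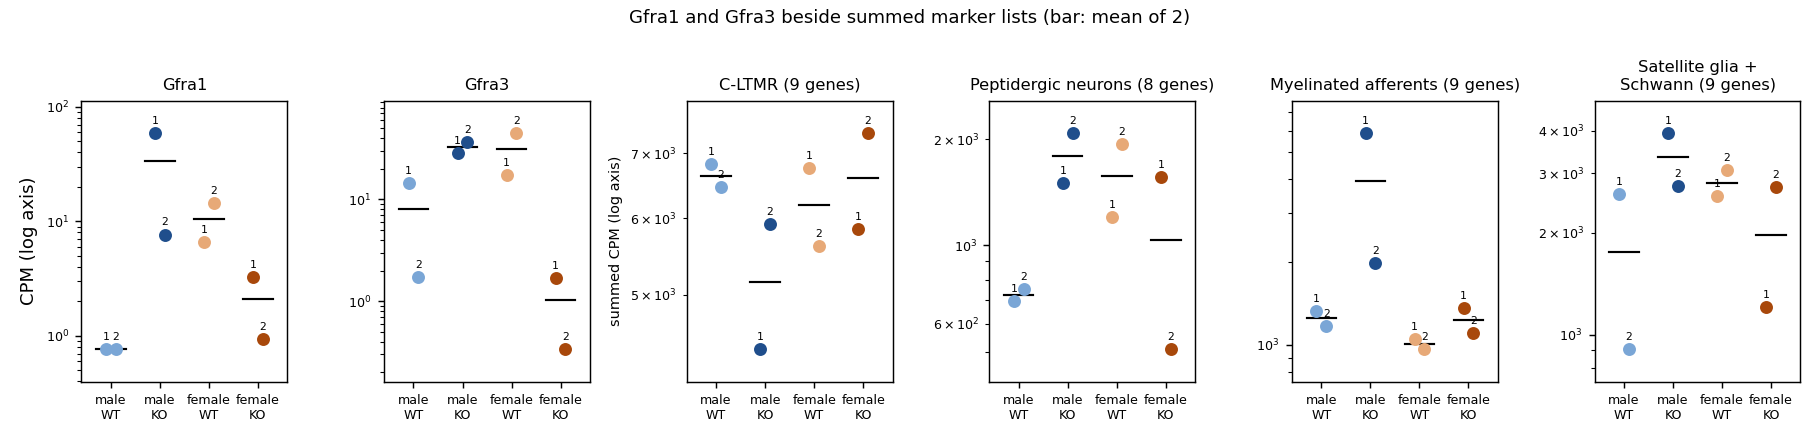
Gfra1 and Gfra3 (CPM, log axis) beside the summed CPM (log axis) of marker lists, with each library as a point and a bar at the group mean. Peptidergic markers sum higher in male KO (1503 and 2081) than in male WT (697 and 753), and myelinated markers peak in male KO 1 at 5877. In females the peptidergic sums of WT (1203 and 1932) and KO (1565 and 507) overlap. Female myelinated sums lie higher in KO (1363 and 1107) than in WT (1047 and 964), unlike Gfra1 and Gfra3.

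The ligands of the family were at 0 or at low counts in the sorted cells. Gdnf had 0 counts in all 8 libraries. Nrtn, which encodes neurturin, was found in male KO 1 with 143 counts (2.48 CPM) and in female WT 2 with 67 counts (1.06 CPM), and had 0 counts in the other 6. Artn, which encodes artemin, had 6 counts in male WT 2 and 46 in female WT 1 and 0 elsewhere. Pspn, which encodes persephin, lay between 0 and 0.815 CPM, and Gdf15, the distant family member that signals through GFRAL, between 0 and 1.91 CPM. Gfral itself had 2 counts in female WT 2 and 0 elsewhere. A count of 0 allows a level of up to the 3 counts given above, and this limit covers counting error only.

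The other genes of RET signalling, 103 in 5 lists, had median fold changes near 0 in both sexes. Of these 93 were tested and none passed by edgeR in either sex. In males 53 were higher and 40 lower in KO (57.0% higher), with a median log2 fold change of 0.01, beside 51.9% higher and a median of 0.02 over all tested genes. In females 44 were higher and 48 lower, with a median of -0.04, beside 49.0% higher and a median of 0.00 over all tested genes. At an unadjusted edgeR p below 0.05 there were 8 in males (8.60%) and 7 in females (7.53%), beside 3.50% and 3.81% of all tested genes. DESeq2 passed 2 of the 93 in males, Sdc3 and Etv1, and 3 in females, Etv1, Sp1 and Spry1, beside the 0.745% and 0.750% of all tested genes given above. The lists were chosen with results of these data known.

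Among partners of the receptor complex, 11 of 15 tested genes were higher in male KO (median 0.08) and 10 of 15 in female KO (median 0.18). Sdc3, a syndecan that binds GDNF family ligands at the cell surface, was at 28.6 and 27.8 CPM in male WT and at 89.1 and 74.2 CPM in male KO. Its log2 fold change was 1.53 (SE 0.37), with an adjusted p of 1 by edgeR and 0.0184 by DESeq2. The KO libraries lay wholly above WT, as for 14.5% of all tested genes in males. Cntn1, a contactin of the neuronal surface, was at 106 and 100 CPM in male WT and at 233 and 150 CPM in male KO. Cdh2, which encodes N-cadherin, was at 19.4 and 38.5 CPM in female WT and at 13.0 and 12.3 CPM in female KO.

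Among adaptors and effectors, which carry the signal from the phosphorylated receptor to RAS, PI3K and AKT, 21 of 41 tested genes were higher in male KO and 17 of 41 in female KO, with medians of 0.00 and -0.06. Pik3r1, a regulatory subunit of PI3 kinase, was at 18.5 and 17.9 CPM in male WT and at 50.1 and 32.2 CPM in male KO. Its log2 fold change was 1.18 (SE 0.32), with an adjusted edgeR p of 1. The KO libraries lay wholly above WT, as for 14.5% of all tested genes in males, and the adjusted value did not pass.

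Among genes that brake RET signalling or move the receptor inside the cell, 9 of 19 tested genes were higher in KO in each sex, with medians of -0.03 in males and -0.08 in females. Spry4, a Sprouty inhibitor of the RAS–ERK pathway, was at 60.4 and 74.8 CPM in male WT and at 34.8 and 45.2 CPM in male KO, a log2 fold change of -0.76 (SE 0.28). Dusp6, a phosphatase of ERK, was at 25 and 27.5 CPM in female WT and at 39.2 and 68.3 CPM in female KO, a log2 fold change of 1.03 (SE 0.29). Spry1 was at 0.247 and 7.35 CPM in female WT and had 0 counts in both female KO libraries. By edgeR none of the 3 passed, and by DESeq2 Spry1 passed with an adjusted p of 0.0441.

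Among transcription factors tied to Ret or Gfra genes, 9 of 15 tested were higher in male KO (median 0.02) and 6 of 15 in female KO (median -0.06). Etv1 is an ETS factor found in myelinated and other sensory neurons. Its KO values lay on the same side of WT as Gfra1 and Gfra3 in each sex, as for 2.63% of all tested genes. Etv1 was at 2.74 and 1.38 CPM in male WT and 42.2 and 6.01 CPM in male KO. In females it was at 8.12 and 22.3 CPM in WT and 0.215 and 0.211 CPM in KO. Its log2 fold change was 3.55 (SE 1.0) in males and -6.15 (SE 1.16) in females, with an adjusted edgeR p of 1 in each. DESeq2 gave adjusted p values of 0.0120 and 5.33e-08 for these, and 1.18e-10 for the difference between the sexes. Egr1, an immediate early gene, was at 139 and 112 CPM in male WT and at 233 and 215 CPM in male KO. Sp1, a general activator, was at 3.16 and 3.30 CPM in female WT and at 13.3 and 9.80 CPM in female KO, with an adjusted p of 0.0255 by DESeq2 and 1 by edgeR.

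**Figure D5:**
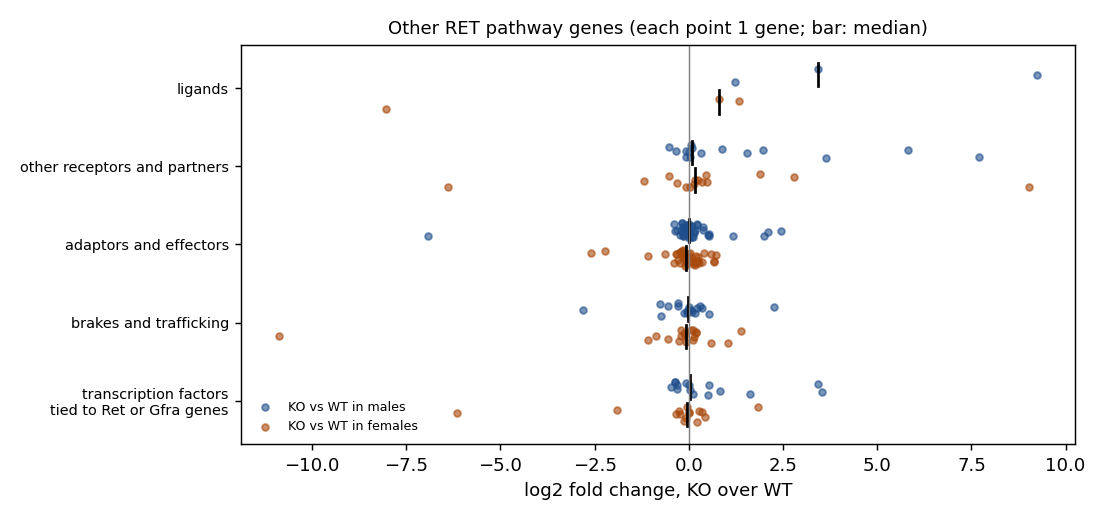
Log2 fold change of KO over WT for each tested gene of the 5 lists, in males and in females, with a black bar at each list's median. The medians of the lists with 15 or more tested genes lie between -0.08 and 0.18, and no gene passed by edgeR.

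The genes most like each member across the 8 libraries were found from the root mean square (RMS) difference of log2 CPM after centring each gene on its mean, among 11857 genes with a mean of at least 5 CPM. This is a description over 8 libraries that share their depth and their sort. For Ret, whose own RMS spread was 0.25, the nearest were B130046B21Rik, Icmt and Prkag1, at differences of 0.063, 0.073 and 0.074, beside a median of 0.41 over all genes compared. For Gfra2, with a spread of 0.33, near genes were Stat6 and Cdh1, at 0.100 and 0.105. Ret and Gfra2 differed from each other by 0.125, which placed Ret 17th among the genes nearest to Gfra2 and Gfra2 68th among those nearest to Ret. For Gfra4, with a spread of 0.27, the nearest were Kctd13, Txndc12 and Slc22a17, at 0.073, 0.096 and 0.096.

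For the 2 variable co-receptors no close match was found. The nearest to Gfra1, whose spread was 2.09, were Apod, S100b and Pdlim5, at differences of 0.97, 1.05 and 1.10. S100b, which marks glia and also large myelinated neurons, was at 321 CPM in male KO 1, where Gfra1 was highest, and at 4.95 to 61.1 CPM in the other libraries. The nearest to Gfra3, whose spread was 2.39, were Faim2, Kit and Etv1, at 1.06, 1.07 and 1.13. Kit, the stem cell factor receptor, is one of the peptidergic markers above, and Etv1 one of the myelinated markers.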

How the data were processed

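C-LTMRs were sorted by GFP, and cDNA from small RNA inputs was made with SMART-Seq v4 and Nextera XT, per the labels' protocols. Those protocols describe no molecular identifiers, so PCR copies are included. Per the file headers, the deposited counts are whole-number read counts per gene from featureCounts 1.6.1, over exons of Ensembl release 97 (GRCm38), without strand, and a read over more than 1 gene counted for each of them. The file names in the header speak of uniquely aligned reads, with the aligner not given in the sources used here. The submitters' processing notes list DESeq2 1.14.1, bcl2fastq 2.17.1.14 and Subread 1.6.4. The authors' deposited tables hold log2 fold changes, their standard errors and raw and adjusted p-values of genes past 5%, per the file headers.

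Of 55573 genes, 55394 had a symbol in the annotation (GENCODE M21 identifiers). edgeR 4.0.16 in R 4.3.3 kept 22013 genes by filterByExpr, scaled sizes with TMM factors (0.9793 to 1.022) and fitted 4 groups over 8 libraries with 4 residual degrees of freedom. Its biological coefficient of variation was 76.6%. All tests were two-sided, with Benjamini-Hochberg adjustment over all tested genes in edgeR. DESeq2 used the same adjustment after its default independent filtering, which leaves out some genes of low mean count. Alternatives were DESeq2 1.42.0, its size factors in edgeR, no filter, a replicate block, each library left out and fits of 1 sex. Leaving out each library in DESeq2 was added after seeing the data. When a library is left out, the lone library of its group is assumed to vary like the other groups. The fitting script was tested on simulated data. Log2 CPM used a prior count of 2.

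The members, gene lists and markers were chosen with earlier results of these data known. Named were all members, Bhlha9, each detected ligand, up to 2 genes per list and sex with the smallest unadjusted p below 0.05, and the 3 genes nearest to each member, of which 1 is not reported here. Single markers were named after their values were seen.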

Additional observations from a re-analysis of the deposited data

Results flagged for a closer look

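The KO libraries differed from WT in Gfra1 and in Gfra3 in opposite directions in the 2 sexes, in every library. The male minus female difference was 7.78 on the log2 scale for Gfra1 and 6.97 for Gfra3. For each gene the KO libraries lay wholly above WT in males and wholly below WT in females. That pattern was found for 2.63% of all tested genes, and the reverse pattern for 2.14%. The interaction test of edgeR gave an adjusted p of 0.98 for each, and DESeq2 gave adjusted p values of 1.27e-06 and 6.43e-05. Peptidergic markers were higher in KO for 7 of 8 genes in males and lower for 7 of 8 in females, and their part in the difference was not tested.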

How the results depend on the processing

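Of 435 values recomputed under an alternative, 370 kept their direction and side of the threshold, 37 newly passed, 17 reversed and 11 counts moved by over 1.5 times. All 17 reversals came from leaving out a library. All 37 new passes came from DESeq2 in place of edgeR, most of them from DESeq2 fits with a library left out. No edgeR alternative newly passed a member. By DESeq2 the counts of called genes were 164 in males, 165 in females, 217 for the difference between the sexes, 140 for male against female WT and 52 over both sexes. DESeq2 newly passed Gfra1 in males (5.45), in the difference between the sexes (7.78) and in WT males against females (-3.77), and Gfra3 in females (-4.94) and in the difference (6.94). The cause was not tested. Without the filter 3 genes passed between WT sexes. With the replicate block the count in females fell from 1 to 0. The replicate numbers did not pair the libraries, with correlations of same-numbered deviations between -0.10 and 0.11. A fit of 1 sex alone, with fewer libraries, passed 0 genes in males and 0 in females. Leaving out each library gave these edgeR ranges. Ret over both sexes ran from -0.20 to 0.13. Gfra2 ran from -0.90 to 0.18 in males, -0.014 to 0.34 in females, -1.09 to 0.011 for the difference, -0.22 to 0.18 over both sexes and -0.027 to 0.37 between WT sexes. Gfra4 ran from -0.48 to 0.014 in males and -0.24 to 0.33 for the difference. Between WT sexes Gfra3 ran from -4.17 to -1.08 and Gfra1 from -4.24 to -3.11, and Gfra1 in females from -3.48 to -1.67. Over both sexes Gfra1 ran from -0.77 to 3.84 and Gfra3 from -3.40 to 0.53. The count between WT sexes was 0 to 1. Over both tools, Gfra1 ran from 3.32 to 6.28 in males and 5.66 to 8.92 for the difference, and Gfra3 from 1.15 to 4.26 in males, -6.52 to -4.09 in females and 6.10 to 9.20 for the difference. With 2 libraries a group, depth was not the limit for Ret, Gfra2 or Gfra4, while Gfra1 and Gfra3 rested on as few as 48 and 24 counts.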
